A study of Mus musculus with 8 samples.

Results

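The Fcγ receptors of mouse, the adaptor chains they share with other myeloid receptors and 4 further genes of phagocytes were examined in cells from parietal bone. The 10 genes were Fcgr1, Fcgr2b, Fcgr3, Fcgr4, Fcer1g, Tyrobp, Dok2, Ms4a6d, Il1b and Fpr1, out of 31053 genes listed in every library, and all 10 had UMIs (unique molecular identifiers, each standing for 1 captured mRNA molecule). They were selected on function and on earlier comparisons of Het with WT in these same libraries, with their levels across classes of cells known. Their differences between genotypes and between classes are therefore no independent evidence. The cells came from pups 4 to 5 days old in 8 droplet libraries, and all animals belonged to the strain B6.129(FVB)-Col1a2tm1Mcbr/J, which carries a Col1a2 allele with 1 glycine of the collagen chain replaced. WT libraries S1, S2, S5 and S6 held animals without the mutant allele. Het libraries S3, S4, S7 and S8 held animals with 1 mutant allele, a model of osteogenesis imperfecta that carries the change in every cell of the body. Each library pooled cells of several pups of 1 genotype, so libraries served as replicates and animals could not be told apart. Libraries S1 to S4 were made with kit version 3 and S5 to S8 with kit version 3.1. Kit, release of the counting software and experiment changed together and cannot be told apart.

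Fcγ receptors bind the constant part of IgG and let phagocytes take up or respond to what antibodies have coated. Fcgr1 (high affinity), Fcgr3 and Fcgr4 (lower affinity) are activating receptors that need the γ chain encoded by Fcer1g, whose ITAM motif recruits the kinase Syk, whereas Fcgr2b carries its own inhibitory motif and sets a brake on the activating receptors. Tyrobp encodes DAP12, a related ITAM adaptor of TREM receptors, and both adaptors are known in bone for the costimulation of osteoclast formation. Dok2 is a docking protein that dampens kinase signalling in blood cells, Ms4a6d a membrane protein of macrophages, Il1b an inflammatory cytokine and Fpr1 a receptor by which neutrophils sense formylated bacterial peptides.

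The genes lie close to one another only in part. In GRCm38 with GENCODE release M21, Fcgr2b (chromosome 1, 170958617 to 170976547, minus strand), Fcgr4 (171018920 to 171029761, plus strand), Fcgr3 (171051174 to 171064935, minus strand) and Fcer1g (171229572 to 171234365, minus strand) follow one another, with gaps of 42.4 kb, 21.4 kb and 165 kb. Fcgr1 lies apart on chromosome 3 (96282909 to 96293969, minus strand) and Tyrobp on chromosome 7 (30413760 to 30417585, plus strand). Of the 10 genes, 7 had an entry in the RefSeq promoter table for GRCm38.p6, with 8 start sites in all, since Fcgr3 had 2. The purine-rich core GAGGAA, to which PU.1 and other ETS factors can bind, was searched on both strands in the 250 bases before each start. It occurred once for Fcgr1, once for Fcgr4 and once before both starts of Fcgr3, and it had no match for Fcgr2b, Fcer1g, Il1b and Fpr1. Of 32851 promoters of the same length, 23.3% held it. The 3 activating receptors are shown because the core, on the reverse strand and hence written as TTCCTC in capitals, lay near the start of each. The 120 bases before the start are given 5′ to 3′ on the strand of the gene, for Fcgr1 from chr3:96293970-96294089 (minus), for Fcgr3 from chr1:171059404-171059523 (minus) and for Fcgr4 from chr1:171018806-171018925 (plus).
Fcgr1: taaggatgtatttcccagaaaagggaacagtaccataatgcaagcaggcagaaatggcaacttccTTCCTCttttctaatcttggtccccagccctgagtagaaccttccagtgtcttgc
Fcgr3: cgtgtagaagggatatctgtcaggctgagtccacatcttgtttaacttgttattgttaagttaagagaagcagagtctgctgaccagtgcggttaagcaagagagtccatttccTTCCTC
Fcgr4: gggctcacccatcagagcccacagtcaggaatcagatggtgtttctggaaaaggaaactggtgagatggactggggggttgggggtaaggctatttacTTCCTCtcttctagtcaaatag
The core lay 55 bases before the start of Fcgr1, 22 before that of Fcgr4 and 6 before the upstream start of Fcgr3. The element TTGCNNAA, of the kind C/EBP factors bind, was found for Fcgr3 and for no other member with an entry, against 9.56% of all promoters. These matches describe letters in these windows only.

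The libraries held 4975 to 20175 barcodes and 30480239 to 85162035 UMIs. Of 68625 barcodes, 46420 had at least 500 genes and under 10% mitochondrial UMIs, and 20980 of those also had under 1% of their UMIs in Col1a1 and under 1% in Col2a1, which leaves out most bone-forming and cartilage cells. These kept cells were divided into 4 classes by 3 genes that are therefore no finding: 1262 cells with at least 2 UMIs of C1qa (C1qa cells), 3000 with at least 10 UMIs of S100a8 and none of C1qa (S100a8 cells), 2130 others with at least 1 UMI of Ptprc (other Ptprc cells), and 14588 without Ptprc. The 10 macrophage markers were detected in C1qa cells of all 8 libraries, at a summed 9633 to 14181 UMIs per 1000000 UMIs of the class (CPM), and neutrophil markers reached 63356 to 164651 CPM in S100a8 cells. Erythroid markers stood above the macrophage markers in C1qa cells of S2 (22014 against 9864 CPM) and S3 (20740 against 13554 CPM) and at 13803 CPM in S1, against 30.02 to 423 CPM in the other 5 libraries, so the class is called by its gene, and their part in its levels was not tested. Other Ptprc cells were a mixture. Libraries S1 and S2 stood apart, with 1435 and 1216 S100a8 cells against 16 to 160 in the other 6. A pair of libraries shared at most 61 barcodes. Results on S100a8 cells in S3, S7 and S8 rested on 21, 18 and 16 cells.

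C1qa cells carried the full set of Fcγ receptors, with Fcgr3 the most abundant in 8 of 8 libraries. All levels here are CPM of UMIs at transcript 3′ ends, summed per class and library, which do not scale with transcript length. Fcgr3 in C1qa cells was at 675, 339, 309 and 307 CPM in the WT libraries S1, S2, S5 and S6 and at 752, 780, 262 and 287 CPM in the Het libraries S3, S4, S7 and S8. The groups overlapped, and the 4 libraries of kit version 3 all lay above the 4 of version 3.1. Fcgr1 followed with a median of 162 CPM (102 to 236 over 8 libraries) and was also higher in every library of kit version 3 than in any of version 3.1. The inhibitory Fcgr2b was at 356, 143, 107 and 100.3 CPM in WT and at 345, 378, 73.8 and 91.0 CPM in Het, a spread that likewise followed the kit more than the genotype. Fcgr4 was the lowest of the 4 receptors by median, at 26.0 CPM (17.5 to 102), so the activating receptors of these cells were mainly Fcgr3 and Fcgr1.

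S100a8 cells carried the receptors in other proportions. Fcgr3 was again the highest in 8 of 8 libraries, with a median of 190 CPM (125 to 344), and lay below its level in C1qa cells in 7 of 8 libraries. Fcgr4 came next with a median of 68.3 CPM (27.9 to 97.2) and exceeded its level in C1qa cells in 7 of 8 libraries, S2 being the exception. In S3 this rested on 2 UMIs (27.9 against 25.4 CPM), too few to show an order. Fcgr1 was at 22.5 CPM (0 to 110) and Fcgr2b at 21.4 CPM (10.8 to 41.8). Fcgr2b was higher in C1qa cells in 8 of 8 libraries, with a median log2 ratio of CPM + 1 of 2.83 (1.79 to 4.03). The S3 value of 0 for Fcgr1 was compatible with up to 41.8 CPM at 3 counts, and the S100a8 values of Fcgr2b in S3, S7 and S8 were 3, 3 and 1 UMIs. Neighbouring receptors in the order, Fcgr1 and Fcgr2b in both classes, had ranges that overlapped.

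The adaptors were more abundant than any of the receptors in every library of the C1qa and S100a8 classes. Fcer1g, the γ chain, had a median of 2147 CPM (1792 to 2403) in C1qa cells, 1453 CPM (1301 to 2086) in S100a8 cells and 1032 CPM (726 to 1248) in other Ptprc cells. Its UMIs were 2.19 to 4.69 times those of Fcgr1, Fcgr3 and Fcgr4 together in C1qa cells and 4.10 to 10.1 times in S100a8 cells. Tyrobp went the other way between these classes, with a median of 1884 CPM (1290 to 2302) in C1qa cells and 2607 CPM (2198 to 2766) in S100a8 cells, where it was higher in 7 of 8 libraries. Fcer1g exceeded Tyrobp in C1qa cells of 7 of 8 libraries and in S100a8 cells of none. In cells without Ptprc, Fcer1g had a median of 19.1 CPM (4.27 to 23.6) and Tyrobp of 19.8 CPM (2.95 to 36.9), and no value of the other 8 genes was above 3.49 CPM.

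**Figure D1:**
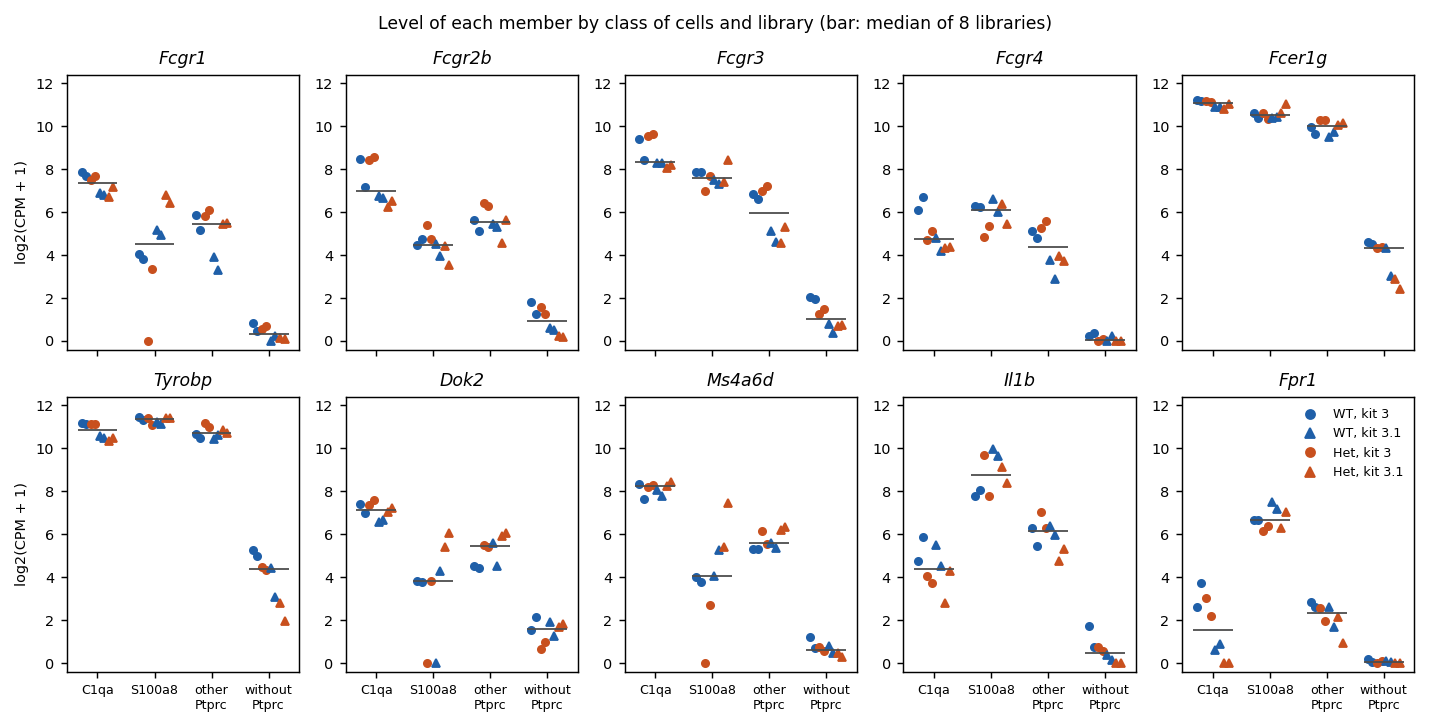
Level of each of the 10 genes as log2(CPM + 1), CPM being UMIs per 1000000 UMIs of the class, in C1qa, S100a8, other Ptprc and Ptprc-negative cells, 1 point a library and a bar at the median (WT blue, Het orange; circles kit version 3, triangles kit version 3.1). Fcer1g and Tyrobp stand at 1290 CPM or more in every library of the C1qa and S100a8 classes, Dok2 and Ms4a6d are highest in C1qa cells, and Il1b and Fpr1 in S100a8 cells.

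Dok2 and Ms4a6d were higher in C1qa cells, and Il1b and Fpr1 in S100a8 cells. Dok2 had a median of 139 CPM (92.6 to 192) in C1qa cells and 13.2 CPM (0 to 64.5) in S100a8 cells, and Ms4a6d 297 CPM (196 to 345) and 15.5 CPM (0 to 172). Each of them was higher in C1qa cells in 8 of 8 libraries. Il1b had a median of 20.02 CPM (5.84 to 56.8) in C1qa cells and 449 CPM (216 to 982) in S100a8 cells, and Fpr1 2.17 CPM (0 to 12.1) and 100.5 CPM (69.7 to 179). Both were higher in S100a8 cells in 8 of 8 libraries, with a median log2 ratio of CPM + 1 in C1qa to S100a8 cells of -4.28 for Il1b. No such ratio is given for Fpr1. The Fpr1 level in C1qa cells rested on 0 to 11 UMIs a library and was 0 in S7 and S8, in a class where neutrophil markers summed to 14.3 to 3568 CPM, and their part in it was not tested.

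Seen cell by cell, most C1qa cells held UMIs of more than 1 receptor gene. At least 1 UMI of Fcgr3 was found in 78.1% to 89.2% of C1qa cells per library, of Fcgr1 in 50% to 76.7% and of Fcer1g in 95.9% to 98.5%, at median depths of 3945 to 17868 UMIs a cell. UMIs of at least 2 of the 4 receptor genes were found in 68.5% to 87.1% of C1qa cells. After each cell had been thinned to 2000 UMIs, leaving 1164 of 1262 cells, the share with Fcgr3 was 35.5% to 76.4% and the share with at least 2 receptor genes 11.3% to 57.7%. Cells without Ptprc served as comparison, although a few may be phagocytes, since all 10 macrophage markers (201 to 1496 CPM summed) and all 7 osteoclast markers (156 to 1116 CPM) were detected among them in every library. In these cells, at median depths of 3476 to 11337 UMIs, Fcgr3 was found in 0.382% to 1.58% and Fcer1g in 1.86% to 7.49% of unthinned cells, and at least 2 receptor genes in 0 to 0.335%. The S100a8 class varied more, with at least 2 receptor genes in 4.76% to 66.7% of its cells before thinning.

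The values just inside and outside the limits on C1qa and S100a8 are given as description. Cells with 1 UMI of C1qa, outside the class, held Fcer1g at 361 CPM and Fcgr3 at 34.2 CPM over all libraries, those with 2 UMIs 919 and 76.6 CPM, and those above 2 UMIs 2106 and 449 CPM. For S100a8, cells with 5 to 9 UMIs, outside the class, held Tyrobp at 2447 CPM and Il1b at 97.1 CPM, those with 10 to 19 UMIs 3837 and 278 CPM, and those with 20 or more 2588 and 269 CPM. Fcgr1 was at 75.5, 109 and 12.6 CPM and Ms4a6d at 80.9, 93.2 and 12.35 CPM in these bands, so both were lowest in the cells with most S100a8, while Tyrobp was highest in the middle band.

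The other Ptprc cells were resolved by marker genes into cells with Ly6c2, Ccr2 and F13a1 UMIs (740), B lineage-like (442), osteoclast-like (261), cells with T and NK genes (73) and mast cell and basophil-like (22) cells, with 592 in none or more than 1 of these, and pooled values follow, in which S1 and S2 weigh most. The Ly6c2/Ccr2/F13a1 cells were given no cell type name, since their neutrophil markers (5550 CPM summed over all libraries) exceeded their monocyte markers (4359 CPM). They carried all the Fcγ receptors, with Fcgr3 at 238 CPM (150 to 294 over 8 libraries), Fcgr1 at 137 CPM (57.7 to 265), Fcgr2b at 113 CPM (77.7 to 180) and Fcgr4 at 43.7 CPM (2.62 to 57.5). The part of the neutrophil markers in these levels was not tested. Fcer1g was in them at 2021 CPM, Tyrobp at 3147 CPM and Il1b at 169 CPM (66.4 to 477). Osteoclast-like cells (Acp5, Ocstamp, Dcstamp and Atp6v0d2) kept both adaptors almost without activating receptors. Fcer1g was at 820 CPM (635 to 1231) and Tyrobp at 1799 CPM (1498 to 2631) in them, Fcgr2b at 14.4 CPM, and Fcgr1, Fcgr3 and Fcgr4 at 0.792, 1.11 and 1.58 CPM, or 5, 7 and 10 UMIs among 261 cells.

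In B lineage-like cells (Cd79a and Cd79b) Fcgr2b was the most abundant of the 4 receptors. It was at 22.0 CPM (17.4 to 54.8 in the 5 libraries with at least 10 such cells), while Fcgr1, Fcgr3 and Fcgr4 were at 0.282, 1.41 and 1.41 CPM, or 1, 5 and 5 UMIs. Fcgr2b is the Fcγ receptor of B cells, where it limits the response to antigen already bound by IgG. The 73 cells with T and NK genes are given no cell type name, since their neutrophil markers summed to 3430 CPM over all libraries against 1365 CPM for T and NK markers. They held Fcgr3 at 62.5 CPM from 50 UMIs, with Fcer1g at 239 CPM and Tyrobp at 309 CPM, and no UMI of Fcgr1 or Fcgr4, which allows up to 3.75 CPM. The 22 mast cell and basophil-like cells held Fcgr3 at 465 CPM, Fcer1g at 1462 CPM and Tyrobp at 2523 CPM, with no UMI of Fcgr1, Fcgr4 or Il1b, which allows up to 27.9 CPM. Fcer1g is in these cells also the γ chain of the IgE receptor.

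**Figure D2:**
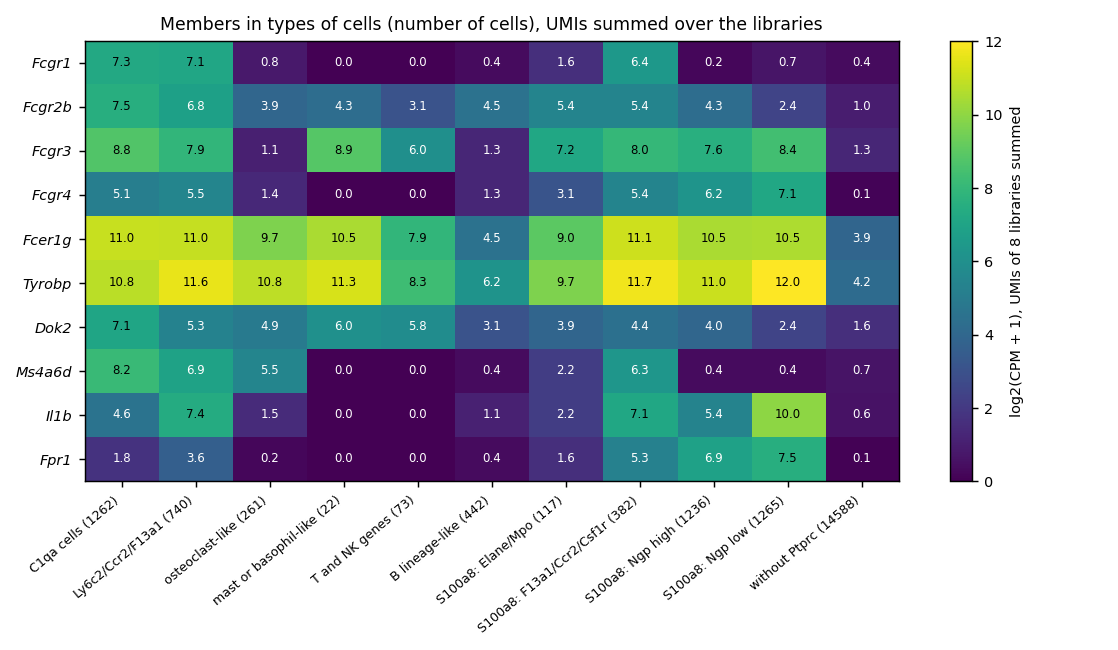
Heat map of the level of each of the 10 genes (log2(CPM + 1), printed in each field, UMIs summed over libraries) in C1qa cells, the marker-defined subsets of other Ptprc cells, subsets of S100a8 cells and cells without Ptprc, with the number of cells in brackets. Osteoclast-like cells hold Fcer1g at 820 and Tyrobp at 1799 CPM with Fcgr1, Fcgr3 and Fcgr4 below 2 CPM, and B lineage-like cells hold Fcgr2b at 22.0 CPM.

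S100a8 cells were split further by maturation genes after their values had been seen, again as description. Cells with at least 3 UMIs of Elane and Mpo, genes of early granulocyte precursors, numbered 117. Of the others, 382 had at least 2 UMIs of F13a1, Ccr2 and Csf1r, genes of monocytes. The rest were 1236 cells with at least 10 UMIs of Ngp, a gene of secondary granules, and 1265 cells with fewer. Fpr1 stood at 2.03 CPM in the Elane and Mpo cells, at 116 CPM in Ngp-high cells and at 186 CPM in Ngp-low cells, and Fcgr4 at 7.63, 73.0 and 140 CPM. Tyrobp was at 826, 2092 and 4142 CPM in the same order, whereas Fcgr2b was at 41.7, 18.9 and 4.45 CPM. These values are pooled, and S1 and S2 gave most of the cells. By library, Ngp-low cells lay above Ngp-high cells in 8 of 8 for Fcgr4 and Tyrobp and below them in 7 of 8 for Fcgr2b. For Fcgr4 the UMIs in Ngp-low against Ngp-high cells were 2 against 0 in S3, 2 against 5 in S7 and 1 against 1 in S8. These are too few to show an order. Ngp-low cells held no Fcgr2b UMI in S3, S6, S7 and S8, which allows up to 140, 72.0, 196 and 263 CPM. Each limit lay above the Ngp-high value of its library, so no order was shown there. In S5 the Fcgr2b order rested on 1 against 2 UMIs. Fpr1 was higher in Ngp-low cells in 6 of 8 and lower in S6 (72.0 against 267 CPM, from 3 and 32 UMIs) and S8 (87.7 against 355 CPM, from 1 and 10 UMIs).

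Il1b was highest in the Ngp-low cells among these subsets, in pooled values. It was at 3.56 CPM in Elane and Mpo cells, 40.1 CPM in Ngp-high cells, 140 CPM in the cells with monocyte genes and 991 CPM in Ngp-low cells, the last ranging from 851 to 2757 CPM in the 6 libraries with at least 10 such cells. In S6 the Ngp-high cells (467 CPM) and the 8 cells with monocyte genes (473 CPM) were high as well. Fcgr1 and Ms4a6d came almost wholly from the 382 cells with monocyte genes, at 84.4 and 79.0 CPM there against 0.147 and 0.295 CPM in Ngp-high and 0.594 and 0.297 CPM in Ngp-low cells. These cells numbered 208, 129, 1, 18, 6, 8, 6 and 6 in S1 to S8, or 4.76% (S3) to 37.5% (S8) of the class.

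Genes whose levels over the 32 library and class sums were most like those of the receptors and adaptors were taken from 7113 genes with a mean of at least 20 CPM, by Pearson's r of log2(CPM + 1). The 32 sums share 8 libraries and 4 classes, so the values describe the ordering of classes. Fcgr1 was most like Adgre1 (0.962) and Cx3cr1 (0.962), both macrophage markers, and Fcgr2b most like Csf1r (0.955) and Ptpn18 (0.945). Fcgr3 was nearest to Tnfaip8l2 (0.982) and Ptafr (0.976), and Fcgr4 to Ebi3 (0.973) and Pirb (0.972). Fcer1g was nearest to Laptm5 (0.987) and Evi2a (0.985), and Tyrobp to Hcls1 (0.993) and Spi1 (0.989), the gene of PU.1.

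In C1qa cells of Het against WT libraries, none of the 9 members tested passed the threshold of 0.05 on the adjusted p of edgeR's quasi-likelihood test with kit version as a term. Fpr1 was too low to be tested. Over all genes, 13 of 10126 were called (0.128%), all lower in Het, among them the neutrophil genes S100a8, S100a9, Ngp, Camp and Lcn2. That count was 0 without S1, S3 or S4 and 58 without S2. Of the members, 3 of 9 had an unadjusted p under 0.05, as did 7.96% of all genes tested, and DESeq2 called 0 members among its 58 genes. Il1b in C1qa cells was at 26.3, 56.8, 43.8 and 21.6 CPM in WT and at 15.5, 12.27, 5.84 and 18.4 CPM in Het. The 4 Het libraries all lay below the 4 WT libraries, and the fitted log2 difference was -1.62 (SE 0.40, adjusted p = 0.214 by edgeR). How many of all genes separate in this way is not given here. Within kit version 3 the Il1b difference was -1.49 and within version 3.1 it was -1.73. Fcgr4 was at 67.8, 101.6, 26.7 and 17.5 CPM in WT and at 25.4, 34.2, 18.8 and 19.4 CPM in Het, and its log2 difference of -0.90 (SE 0.27, adjusted p = 0.348 by edgeR) came mostly from kit version 3 (-1.46 against -0.27 within version 3.1). Summed neutrophil markers in the same cells were 78.6 (S6) to 3568 CPM (S1) in WT and 14.3 (S8) to 312 CPM (S4) in Het. Il1b was higher in C1qa than in S100a8 cells in 0 of 8 libraries and Fcgr4 in 1 of 8. The part of these markers in the differences between genotypes was not tested. With cells of mixed markers left out, cartilage markers not counted, Il1b was at -1.62 and Fcgr4 at -0.46, an alternative chosen after seeing the data, and with all markers counted, as planned, they were at -1.44 and -0.86 over 6 libraries, as S7 and S8 kept too few cells. With no filter on low counts, edgeR called Il1b (adjusted p = 6.53e-08) and Fcgr4 (adjusted p = 0.00123), in a fit that called 420 genes. No share of all genes is given for that fit, so these calls are no result on the members as a set.

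The other receptors of C1qa cells had fold changes smaller than or close to their standard errors. The log2 fold change of Fcgr1 was -0.12 (SE 0.14), of Fcgr2b 0.03 (SE 0.26) and of Fcgr3 0.15 (SE 0.21). Within the kits, Fcgr2b went from 0.43 (version 3) to -0.42 (version 3.1) and Fcgr3 from 0.53 to -0.24, so these values had no common direction. The adaptors were at -0.07 (SE 0.09) for Fcer1g and -0.13 (SE 0.09) for Tyrobp. Dok2 was at 0.33 (SE 0.13, edgeR adjusted p = 0.521), with 0.21 within version 3 and 0.45 within version 3.1, and Ms4a6d at 0.24 (SE 0.15).

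**Figure D3:**
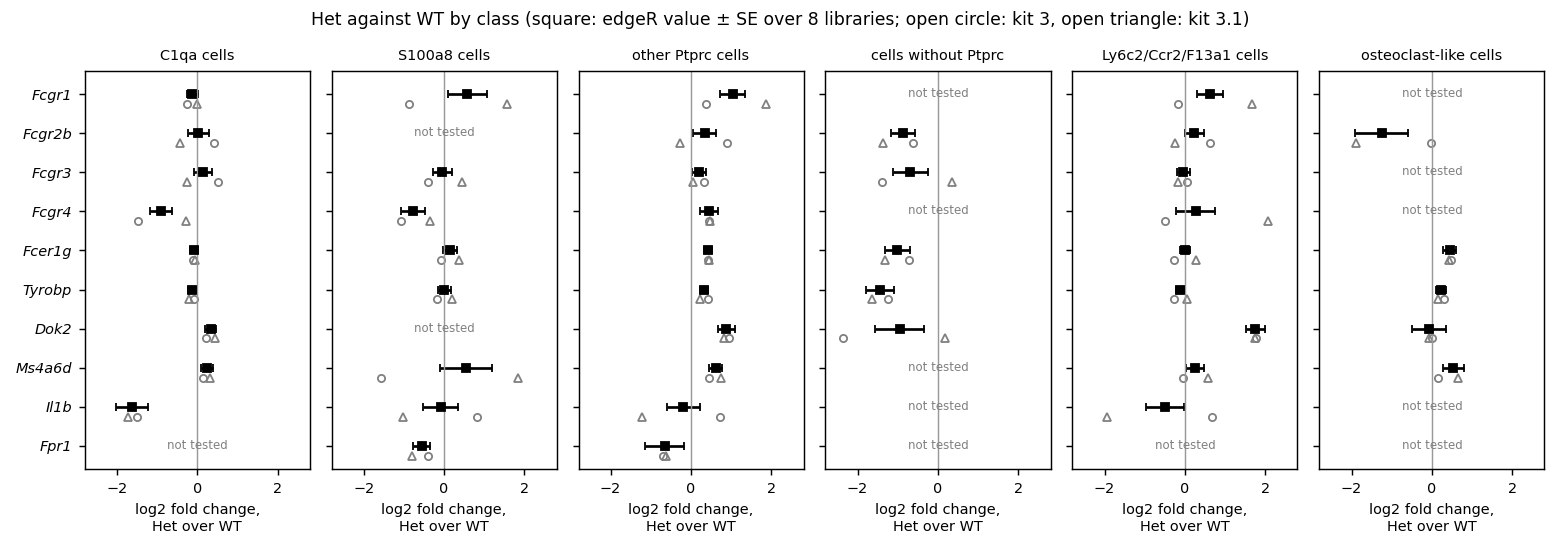
Log2 fold change of Het against WT for each gene in each class of cells (squares, edgeR with kit version as a term, bars 1 SE; open circles and triangles, the difference within kit version 3 and 3.1). In C1qa cells Il1b at -1.62 and Fcgr4 at -0.90 lie furthest below 0, and in other Ptprc cells the values of Fcgr1, Dok2, Ms4a6d, Fcer1g and Tyrobp lie between 0.32 and 1.04.

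In S100a8 cells 0 of the 8 members tested were called, as were 0 of 4263 genes (0%). By an unadjusted p under 0.05 there were 215 genes (5.04%) and 2 members, and DESeq2 called 0 genes. Fpr1 was at 100.6, 100.4, 179 and 144 CPM in WT and at 69.7, 82.4, 75.9 and 129 CPM in Het. The groups overlapped through S8, and the fitted log2 difference was -0.55 (SE 0.21, adjusted p = 0.933 by edgeR), from -0.39 within kit version 3 and -0.79 within version 3.1. Fcgr4 was at -0.77 (SE 0.29, edgeR adjusted p = 0.933). Il1b, at 216, 264, 982 and 796 CPM in WT and 822, 219, 565.5 and 333 CPM in Het, had a difference of 0.82 within version 3 and -1.02 within version 3.1. Fcgr1 likewise turned from -0.87 to 1.58 and Ms4a6d from -1.56 to 1.85, the genes that came from the cells with monocyte genes. The Het libraries held 16 to 160 cells of the class. Monocyte markers in these cells summed to 1876 to 2736 CPM in WT and 2841 to 3817 CPM in Het, and osteoclast markers to 931 to 1238 CPM and 559 to 863 CPM. The part of both in these values was not tested.

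Whether the difference between genotypes was itself different in C1qa and S100a8 cells was tested by an interaction. Of 10044 genes 30 were called (0.299%) and of the 10 members 0, with 1 member at an unadjusted p under 0.05, as were 4.81% of all genes; DESeq2 was not run for it. That member was Il1b, whose log2 fold change was 1.33 higher in S100a8 than in C1qa cells (SE 0.42, edgeR adjusted p = 0.448). Without S8, which had 16 S100a8 cells, the value was 1.94 and the adjusted p 0.0108, and without S3, which had 21, the value was 0.77. Among the 30 genes called were the neutrophil genes Camp, Ngp, Ltf, Lcn2, S100a8 and S100a9. Neutrophil markers in C1qa cells summed to 78.6 to 3568 CPM in WT and 14.3 to 312 CPM in Het, and their part in the Il1b value was not tested.

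In other Ptprc cells all members except Il1b and Fpr1 had a positive fold change, but none of the 10 was called, as 2 of 11089 genes were (0.0180%), Dab2 and Cfp, both higher in Het. Over all genes tested 49.6% were positive. Fcgr2b was at 0.90 within kit version 3 and -0.28 within version 3.1, Fcgr3 at 0.31 and 0.05, and Il1b at 0.72 and -1.22. Of the members, 5 of 10 had an unadjusted p under 0.05, as did 17.2% of all genes tested. Fcer1g was at 1009, 790, 726 and 847 CPM in WT and at 1248, 1247, 1056 and 1141 CPM in Het. All 4 Het libraries lay above all 4 WT libraries, at a log2 difference of 0.43 (SE 0.10, adjusted p = 0.112 by edgeR), 0.41 within kit version 3 and 0.45 within version 3.1. Tyrobp, at 1636, 1414, 1386 and 1561 CPM in WT and 2288, 1997, 1828 and 1679 CPM in Het, did not overlap either and had a log2 difference of 0.32 (SE 0.10, adjusted p = 0.181 by edgeR). The share of all genes whose groups separate in this way is not given here, and the members were selected on earlier comparisons of these libraries. Dok2 was at 0.88 (adjusted p = 0.125), Ms4a6d at 0.61 (adjusted p = 0.126) and Fcgr1 at 1.04 (adjusted p = 0.167) in the same edgeR fit. DESeq2 called Fcer1g (adjusted p = 0.00216), Dok2 (0.0303), Ms4a6d (0.0331) and Fcgr1 (0.0459), among 384 genes. The share of all genes that DESeq2 called is not given here, so these calls are no result on the members as a set. With each cell thinned to 2000 UMIs, so that cells weigh alike, the log2 differences were 0.064 for Fcer1g, 0.018 for Tyrobp and 0.23 for Ms4a6d, and Fcgr1 was at 0.16 with cells of mixed markers left out as planned, in a fit without S7 and S8, and at 0.69 over all 8 libraries with cartilage markers not counted. Within kit version 3 it was at 0.37 and within version 3.1 at 1.88. The make-up of the class moved with these values. B lineage markers summed to 926 to 2620 CPM in WT and 303 to 1518 CPM in Het, macrophage markers to 482 to 1030 CPM and 992 to 1579 CPM, and osteoclast markers to 1169 to 11673 CPM and 3281 to 17040 CPM, and their part in the result was not tested.

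The class was therefore also fitted within its Ly6c2/Ccr2/F13a1 and osteoclast-like cells, a step added after these values had been seen. In Ly6c2/Ccr2/F13a1 cells 2 of 5784 genes were called (0.0346%), both higher in Het, and 1 of the 9 members tested, Dok2; the other was Basp1. Dok2 was at 23.1, 14.8, 56.1 and 28.9 CPM in WT (50, 19, 18 and 11 UMIs) and at 71.3, 68.0, 133 and 159 CPM in Het (17, 28, 30 and 30 UMIs). It rose by 1.75 on the log2 scale (SE 0.24, adjusted p = 0.0409 by edgeR), with every Het library above every WT library and like differences within kit version 3 (1.76) and version 3.1 (1.73). How many of all genes separate in this way is not given here. For Dok2 the adjusted p was 0.000114 by DESeq2 and 0.134 with the replicate numbers as a block. It stayed under 0.05 without S1 (0.0472) and without S5 (0.00559) and lay above it without S2 (0.0986), S3 (0.07998), S4 (0.0650), S6 (0.135), S7 (0.133) or S8 (0.115). The Het libraries held 15 to 93 of the 740 cells each and the WT libraries 35 to 299. Macrophage markers in these cells were 1085 to 1471 CPM in WT and 1238 to 2459 CPM in Het, and Dok2 was also abundant in C1qa cells, neutrophil markers were 131 to 12056 CPM in WT and 68.9 to 2643 CPM in Het, and the part of both in the result was not tested. That Dok2 differed more in Ly6c2/Ccr2/F13a1 than in C1qa cells was not tested.

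**Figure D4:**
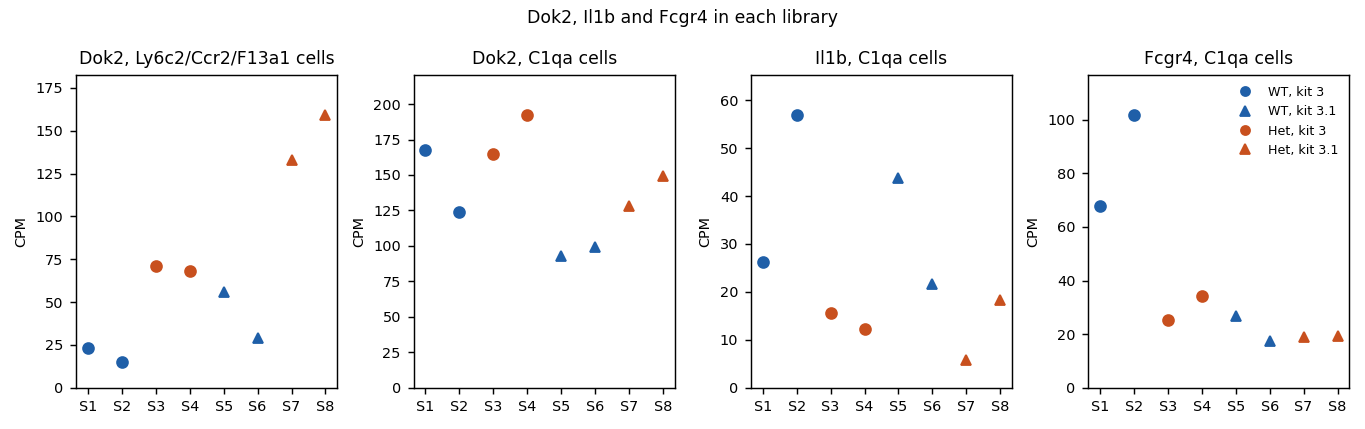
Level in CPM of Dok2, Il1b and Fcgr4 in each of the 8 libraries by class of cells (WT blue, Het orange; circles kit version 3, triangles kit version 3.1). In Ly6c2/Ccr2/F13a1 cells Dok2 stands at 14.8 to 56.1 CPM in the WT and 68.0 to 159 CPM in the Het libraries, and in C1qa cells Il1b at 21.6 to 56.8 and 5.84 to 18.4 CPM.

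The receptors and adaptors in Ly6c2/Ccr2/F13a1 cells did not pass the test. Fcer1g had a log2 fold change of 0.01 (SE 0.13), Tyrobp of -0.12 (SE 0.11), Fcgr3 of -0.04 (SE 0.16) and Fcgr2b of 0.24 (SE 0.23). Fcgr1 was at 0.63 (SE 0.32) but at -0.18 within kit version 3 and 1.66 within version 3.1. In osteoclast-like cells 1 of 7100 genes was called (0.0141%), Dab2, higher in Het, and 0 of the 5 members tested, with 1 at an unadjusted p under 0.05 (11.3% of all genes) and 0 by DESeq2. That was Fcer1g with 0.45 (SE 0.16, edgeR adjusted p = 0.298). Tyrobp was at 0.22 (SE 0.13), Ms4a6d at 0.53 (SE 0.26) and Dok2 at -0.07 (SE 0.42). Fcgr2b had the largest value and went the other way, at -1.25, with -0.019 within kit version 3 and -1.89 within version 3.1.

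In cells without Ptprc, where no member was above 36.9 CPM, 0 of 14738 genes were called (0%), with 2541 (17.2%) at an unadjusted p under 0.05 and 721 by DESeq2. Of the 5 members tested 0 were called, and 3 had an unadjusted p under 0.05. Tyrobp was at 36.9, 30.5, 20.7 and 7.56 CPM in WT and 21.0, 18.9, 5.94 and 2.95 CPM in Het, a log2 difference of -1.44 (SE 0.34, adjusted p = 0.168 by edgeR). Fcer1g was at -1.01 (SE 0.32) and Fcgr2b at -0.86 (SE 0.30). DESeq2 called Tyrobp (adjusted p = 0.00256), as did edgeR with the replicate numbers as a block (0.0336), without the filter on low counts (0.00923) and with thinned cells (0.0378). The share of all genes called in these fits is not given here, so the calls do not set Tyrobp apart from other genes. The share of S100a8 and other Ptprc cells was lower in Het in these same libraries. Erythroid markers in cells without Ptprc summed to 12832 to 259991 CPM in WT, highest in S1 and S2, and 1392 to 33359 CPM in Het, and neutrophil markers to 243 to 854 CPM and 138 to 506 CPM. The part of each in the result was not tested.

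The share of each class among kept cells was compared between genotypes. S100a8 cells were 36.5%, 28.3%, 3.90% and 2.19% of kept cells in the WT and 1.44%, 4.58%, 0.854% and 1.12% in the Het libraries. The Het mean was 15.7 percentage points lower, -29.4 within kit version 3 and -2.06 within version 3.1, and the exact permutation test gave p = 0.0857 (two-sided, adjusted over 4 classes 0.114). Without S1 the difference was -9.48 points. Within each kit both Het libraries lay below both WT libraries, and permuting within kit version gave p = 0.0556 by the exact test, the smallest it can give. Other Ptprc cells were 12.2% ± 5.08 (SD, n = 4) in WT and 5.02% ± 1.02 (SD, n = 4) in Het. The exact permutation p of 0.0286 (adjusted 0.114) was the smallest that 4 against 4 libraries can give, and within kit version the exact permutation p was 0.0556. C1qa cells were 6.27% ± 3.22 in WT and 6.61% ± 1.63 in Het (SD, n = 4 each, exact permutation p = 0.914), with 1.70% in S2. Losses of cells in isolation and fewer cells in the bone cannot be told apart.

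**Figure D5:**
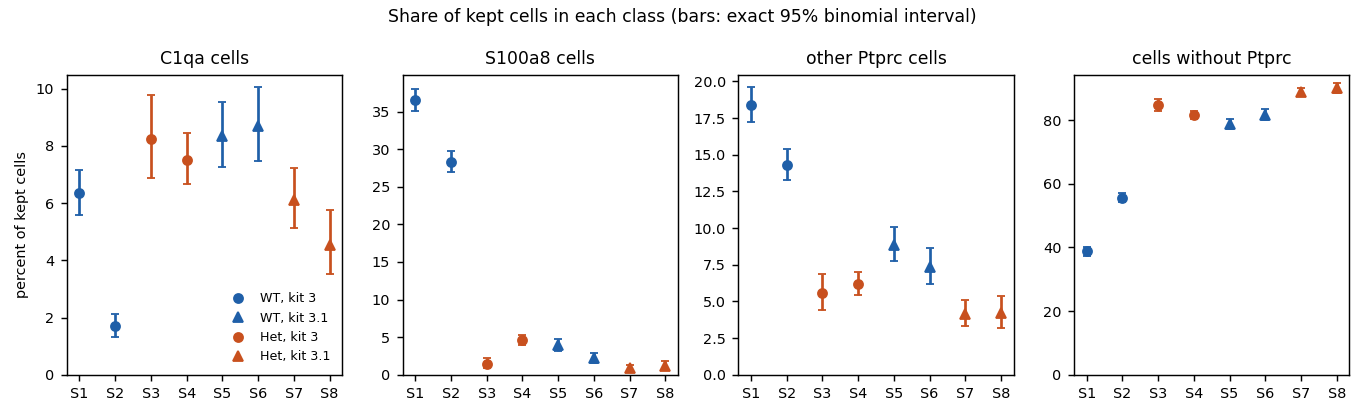
Percent of kept cells in each class for libraries S1 to S8 (WT blue, Het orange; circles kit version 3, triangles kit version 3.1; bars, exact 95% binomial intervals, which cover counting error only). S1 and S2 hold 36.5% and 28.3% S100a8 cells, against 4.58% or less in the other 6 libraries.

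The balance of the inhibitory against the activating receptors was taken as the log2 ratio of Fcgr2b to Fcgr1, Fcgr3 and Fcgr4 together. In C1qa cells it was -1.96 ± 0.34 in WT and -1.90 ± 0.51 in Het (SD, n = 4 each). The difference of 0.06 was less than the spread between libraries (exact permutation p = 0.971, two-sided), and it was 0.36 within kit version 3 and -0.24 within version 3.1. In S100a8 cells the ratio was lower, -3.87 ± 0.19 in WT and -3.68 ± 1.505 in Het (SD, n = 4 each, exact permutation p = 0.743, adjusted over both classes 0.971), and the wide Het spread came with 1 to 14 UMIs of Fcgr2b a library.

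The other genes of the pathway were read from a list of 115, which took in other Fc receptors, ITAM kinases and adaptors, inhibitors, partner receptors of Tyrobp and Fcer1g, inhibitory myeloid receptors, the MS4A and formyl peptide receptor families, the IL-1 system and phagocyte effectors. None was called by edgeR within any of the 4 classes, and counts by group are description. The interaction between C1qa and S100a8 cells called 1 of them, Ms4a4c, of the MS4A family. It was at 46.6, 79.2, 8.56 and 4.99 CPM in WT and 2.82, 4.38, 2.92 and 6.14 CPM in Het C1qa cells, and at 33.0, 21.4, 15.7 and 18.4 CPM in WT and 55.7, 15.0, 131 and 64.5 CPM in Het S100a8 cells. The groups overlapped in both classes, and its log2 difference between genotypes was -2.57 (SE 0.56) in the first and 0.81 (SE 0.56) in the second. The interaction was 3.47 (SE 0.65, adjusted p = 0.00726 by edgeR), 2.96 without S3 (adjusted p = 0.111) and 2.82 without S7 (adjusted p = 0.153), whose S100a8 cells held 4 and 19 of its UMIs, and it was called without each of the other 6 libraries. Neutrophil markers in C1qa cells, highest in WT (78.6 to 3568 CPM against 14.3 to 312 CPM), moved with the values there, and their part was not tested. In C1qa cells 85 were tested, of which 19 had an unadjusted p under 0.05 (7.96% of all genes), and 62 had a negative and 23 a positive fold change (47.0% of all genes were positive), with a median of -0.16 against -0.02 over all genes tested. In S100a8 cells 64 were tested, 5 of them with an unadjusted p under 0.05 (5.04% of all genes), with a median of -0.06 against 0.02 over all genes tested. In other Ptprc cells 102 were tested, 22 with an unadjusted p under 0.05 (17.2% of all genes), and 73 were positive (49.6% of all genes), with a median of 0.16 against -0.002 over all genes tested. Of the 21 tested receptors that pair with Tyrobp or Fcer1g, such as TREM and OSCAR receptors, 19 were positive there, with a median of 0.45 and 9 at an unadjusted p under 0.05. Macrophage markers (482 to 1030 CPM in WT, 992 to 1579 CPM in Het) and osteoclast markers (1169 to 11673 and 3281 to 17040 CPM), among which Oscar is itself counted, moved with these, and their part was not tested. In C1qa cells 10 of the 15 tested receptors of this group were negative, with a median of -0.27, in S100a8 cells 8 of 15, with a median of -0.077, and in cells without Ptprc 4 of 4. In cells without Ptprc 68 were tested and 28 had an unadjusted p under 0.05 (17.2% of all genes), with a median of -0.63 against 0.02 over all genes tested. All 8 phagocyte effectors were negative in them, with a median of -1.95, where 52.2% of all genes were positive and the share of S100a8 cells was lower in Het.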

How the data were processed

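The 8 matrices were deposited by the authors as raw UMI counts per gene and cell barcode, not normalized, made with Cell Ranger 5.0.0 (kit version 3) or 6.0.1 (kit version 3.1) per the file headers, on build mm10 per the submitters' processing notes. The genes and gene lists were chosen by a session with earlier results of these data known, and all 10 members are named throughout. Barcodes were filtered and classed as described, with no doublet caller run. Doublets were addressed by leaving out cells with mixed markers as an alternative. UMIs were summed per library and class, since cells are not replicates, for libraries with at least 10 cells, and CPM was taken from these sums. Het was compared with WT by edgeR 4.0.16 (quasi-likelihood test, its default filter on low counts, TMM scaling, kit version as a term, Benjamini-Hochberg adjustment over all genes tested), in R 4.3.3, after a test on simulated data, and DESeq2 1.42.0 was an alternative. Shares and ratios were compared by exact permutation over the 70 assignments of libraries, and over the 36 within kit version as an alternative chosen after seeing the data (with numpy 2.4.6). Intervals and zero limits (3 counts) cover counting error only. Other alternatives were the absence of a filter or kit term, the replicate number as a block, other limits on UMIs and mitochondrial RNA, cells thinned to 2000 UMIs and leaving out each library. From the list of 115 pathway genes, values were to be given only for genes called, and for likeness the 2 nearest genes of each receptor and adaptor. Where nothing states that the pools of pups were independent, p-values measure only the spread between libraries. The shared numbering of libraries was not taken as pairing. UMIs of Col1a2 do not tell the mutant allele apart, so the labels of genotype were not checked.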

Additional observations from a re-analysis of the deposited data

Results flagged for a closer look

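In 92 groups of 4 libraries, 9 values stood far from the other 3 of their group, where chance flags about 1 in 20. In C1qa cells of WT library S1, Fcgr2b was at 356 CPM (100.3 to 143 in the others), Fcgr3 at 675 CPM (307 to 339) and the log2 ratio of Fcgr2b to the activating receptors at -1.46 (-2.17 to -2.09). This group holds both kits. Het libraries S3 and S4, of the same kit, had Fcgr2b at 345 and 378 CPM and Fcgr3 at 752 and 780 CPM, and among the libraries of kit version 3 the lowest was S2 (143 and 339 CPM). The log2 fold change of Het against WT was 0.23 for Fcgr2b and 0.28 for Fcgr3 without S1, and -0.23 and -0.072 without S2. In S100a8 cells, Tyrobp was at 2198 CPM in Het library S4 (2675 to 2745 in the others) and Ms4a6d at 36.9 CPM in WT library S6 (12.6 to 15.7), the latter from 10 UMIs. S100a8 cells were 4.58% of kept cells in S4 against 0.854% to 1.44% in the other Het libraries. Dok2 in other Ptprc cells was at 47.7 CPM in WT library S5 against 20.5 to 21.7 CPM. In cells without Ptprc, Fcgr4 and Fpr1 were each at 0.0790 CPM in S4, from 1 UMI, and at 0 in the other Het libraries.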

How the results depend on the processing

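The levels by class rested on sums over whole libraries, and the depth was lowest for S100a8 cells in S3, S7 and S8 and for Fpr1 outside that class. Il1b and Fcgr4 stayed lower in Het C1qa cells, and Fcer1g, Tyrobp, Dok2, Ms4a6d and Fcgr1 higher in Het other Ptprc cells, under all alternatives run that tested them. Fcgr4 in C1qa cells went from -0.90 to -0.46 with mixed cells left out (cartilage markers not counted), and in other Ptprc cells with thinned cells Fcer1g went from 0.43 to 0.064 and Tyrobp from 0.32 to 0.018. The cause of the changes below was not tested, except where fewer cells or genes entered.

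Genes called in C1qa cells (13) became 58 with DESeq2, 420 with no filter on low counts, 0 with no kit term, 0 with looser and 1 with stricter UMI limits, 1 with mitochondrial UMIs under 5%, 7 with thinned cells, 2 with cells of mixed markers left out (cartilage markers not counted, chosen after seeing the data), and 0 to 58 on leaving out a library (0 without S1, S3 or S4, 5 without S8, 7 without S7, 24 without S6, 58 without S2). In S100a8 cells (0) they became 36 with no filter, 12 with mixed cells left out as planned (which dropped S7 and S8 from each class it touched), and 0 on leaving out any library. In other Ptprc cells (2) they became 384 with DESeq2, 485 with no filter, 0 with no kit term, 126 with looser UMI limits, 0 with mitochondrial UMIs under 5%, 8 with thinned cells, 23 and 5 with mixed cells left out both ways, and 1 to 4 on leaving out a library (4 without S6). In cells without Ptprc (0) they became 721 with DESeq2, 666 with no filter, 1 with mitochondrial UMIs under 5%, 222 with thinned cells and 0 to 22 on leaving out a library (22 without S6). In Ly6c2/Ccr2/F13a1 cells edgeR's 2 became 17 with DESeq2 and 0 to 49 on leaving out a library (49 without S5), and in osteoclast-like cells its 1 became 90 with DESeq2 and 0 to 94 on leaving out a library (94 without S8). The 30 of the interaction became 21 to 51.

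With the replicate block, which put same-numbered libraries together, 18 genes were called in C1qa, 4 in S100a8, 22 in other Ptprc, 119 in Ptprc-negative, 0 in Ly6c2/Ccr2/F13a1 and 1 in osteoclast-like cells. Deviations of same-numbered libraries correlated at -0.02 and -0.01 (C1qa), 0.03 and 0.02 (S100a8), 0.10 and 0.25 (other Ptprc) and 0.24 and -0.02 (without Ptprc) within the 2 kits, and since not every one was over 0.1 the numbers were not taken as pairs. The replicate block turned Tyrobp in S100a8 cells to -0.015 and Fcer1g in Ly6c2/Ccr2/F13a1 cells to -0.0043.

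Directions of members near 0 turned. Tyrobp in C1qa cells was 0.0082 with thinned cells. In S100a8 cells Fcer1g was -0.054 with no filter and -0.22 with mixed cells left out, Il1b 0.68 with mixed cells left out, and Tyrobp -0.031 with DESeq2, -0.19 with no filter, -0.10 with mitochondrial UMIs under 5%, -0.29 with thinned cells, and -0.29 and -0.070 with mixed cells left out both ways. In other Ptprc cells Fcgr3 was -0.13 with thinned cells and Il1b 0.047 with no kit term and 0.40 with mixed cells left out. Fcer1g in Ly6c2/Ccr2/F13a1 cells was -0.0068 with DESeq2. On leaving out each library the ranges were -0.23 to 0.23 (Fcgr2b) and -0.072 to 0.28 (Fcgr3) in C1qa cells, -0.32 to 0.074 (Fcgr3), -0.11 to 0.082 (Tyrobp), -0.51 to 1.34 (Ms4a6d) and -0.67 to 0.23 (Il1b) in S100a8 cells, -0.56 to 0.15 (Il1b) in other Ptprc cells, -6.55e-06 to 0.40 (Fcgr2b), -0.16 to 0.059 (Fcgr3), -0.070 to 0.67 (Fcgr4) and -0.11 to 0.12 (Fcer1g) in Ly6c2/Ccr2/F13a1 cells and -0.44 to 0.43 (Dok2) in osteoclast-like cells. The difference in the share of C1qa cells was -0.218 points with thinned cells, -0.242 with no limit on Col1a1 and Col2a1 and -1.19 to 1.14 on leaving out a library (-1.19 without S2). The log2 ratio of Fcgr2b to the activating receptors differed by -0.093 to 0.23 in C1qa cells on leaving out a library, and in S100a8 cells by -0.076 with looser limits and -0.40 to 0.79 on leaving out a library.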
